A study of Mus musculus with 18 samples.

Results

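Yap1, 1 of the 2 transcriptional effectors at the end of the Hippo pathway, is described here with 9 other genes of that pathway in sorted mouse heart muscle cells: Wwtr1 (the gene of Taz), Tead1, Vgll4, Lats1, Lats2, Sav1, Stk3, Stk4 and Nf2. The 10 genes were listed by name, as the core of the pathway and its nuclear end; the rule uses no measured value, although earlier results of these data were known when it was written. All 10 were among the 12048 genes listed for every library. No member passed the test between mononucleated and binucleated cells at any age. With age, Stk3 fell in both classes between P7 and the adult, Vgll4 fell in both classes after E18.5, and Wwtr1 was higher at P7 than at E18.5 in both classes. The mononucleated Wwtr1 call held without 13 of 18 single libraries and under 4 of 7 other settings. The mononucleated Vgll4 call from E18.5 to P7 held without 10 of 18 single libraries. Nf2 and Yap1 were called higher with age in binucleated cells only, with sizes or calls that moved when single libraries were left out, and the difference between the classes in these changes was tested and not called.

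In the Hippo pathway a kinase chain restrains growth. Stk3 and Stk4 encode the Mst kinases at its head. With the scaffold protein Sav1 and the membrane protein Nf2 (Merlin), they activate the Lats1 and Lats2 kinases, which phosphorylate Yap and Taz and so keep them out of the nucleus or mark them for breakdown. When the chain is off, Yap and Taz enter the nucleus and bind the Tead DNA-binding factors, and Vgll4 competes with them for these factors. In the heart the pathway is known for limiting cardiomyocyte division: loss of its kinases or gain of Yap activity in mice extends division beyond the time around birth when it normally ends. Most of this control acts on the protein, through phosphorylation and location, and RNA levels do not show it.

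The series compared the RNA of mononucleated and binucleated cardiomyocytes, which differ in their capacity to divide. All 6 groups carried the same alleles, Mlc2vcre and R26REYFP, so that Cre driven by Mlc2v, a gene of ventricular muscle, switches on a yellow fluorescent reporter; no group carried a changed Hippo gene per the labels. The groups were mononucleated and binucleated cells at E18.5 (late gestation), P7 (the first postnatal week) and adult age, which is not given in numbers, with 3 libraries in each and 18 in all. Cells came by flow sorting into Trizol-LS; the sources used here do not say how the sort told nuclear number apart. Nothing in the labels says that replicates are separate animals, so the p-values below reflect only how these samples vary, and that variation may be technical.

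Recovered read totals ran from 14833334 to 22690952 per library. The 8 defining markers of cardiomyocytes summed to between 28000 and 46350 CPM (reads scaled to 1000000 per library) in every library, and none of them was at 0 in any group. E18.5 binucleated replicate 1 stood apart: it had the lowest total, its log2 values departed from those of its replicates with an SD of 1.22 over genes, and its chi-square per degree of freedom against its replicates was 243.5 or more, against 39.9 or less for every other replicate pair. Member results that move with it are given with and without it; since all libraries share 1 estimate of the spread, its removal also changes tests between other groups. Fibroblast markers (7 of 8 measured) summed to 301.2 to 869.4 CPM in the E18.5 binucleated libraries against 47.2 to 94.4 in the mononucleated ones, and endothelial markers (9 of 9) to 56.2 to 103.1 against 14.2 to 27.9. Leukocyte markers (5 of 8 measured) summed to 4.46 to 10.3 CPM against 0 to 0.803, with Laptm5, C1qb and C1qc at 0 in E18.5 mononucleated cells. Epicardial (4 of 5) and erythroid (5 of 6) sums were also higher in every E18.5 binucleated library, at 52.5 to 56.2 against 28.4 to 34.5 CPM and 101.3 to 176.8 against 38.5 to 67.3 CPM. Sums of pericyte and smooth muscle markers (7 of 8) overlapped, at 1319 to 1681 against 1418 to 1523 CPM, with Pdgfrb at 0 in the mononucleated group. Gene by gene, the median binucleated minus mononucleated difference of these markers was 1.05 (log2), beside -0.01 for all genes. Limma called 1 of the 7 higher and 0 lower, beside 0.805% of all genes called. The part of these cells in the E18.5 results below was not tested, and in bulk RNA fewer cells of a type and less RNA per cell cannot be told apart.

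Among the members, Nf2 and Wwtr1 had the highest levels per length. In E18.5 mononucleated cells the mean CPM per kilobase of exon was 24.5 for Nf2, 23.5 for Wwtr1, 10.9 for Lats2, 9.32 for Stk4, 7.84 for Stk3, 4.04 for Yap1, 3.82 for Vgll4, 2.27 for Lats1, 0.378 for Sav1 and 0.306 for Tead1. Nf2 and Wwtr1 were thus several times above Yap1, and Sav1 and Tead1 were the lowest of the members. Lengths are those of GENCODE M21, while the annotation used for counting is not given, so levels set between genes are approximate. Over all 18 libraries 91.6% of the listed genes had a lower mean CPM than Nf2, 85.4% than Wwtr1, 59.9% than Yap1, 22.1% than Tead1 and 13.4% than Sav1. Recovered counts were 79 to 197 per library for Tead1 and 6 to 150 for Sav1, so both have wide errors.

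Part of 3 members' sequence is shared with other genes. In GENCODE M21 annotation, 1336 exonic bases of Sav1 (25.4%) lie opposite exons of Atl1, which the tables also list, and 116 exonic bases of Yap1 (1.25%) lie opposite the transcript Gm20416. Lats2 shares 2955 exonic bases (42.4%) on the same strand with Gm49361, which the tables do not list. The sources used here do not say how the counting treated shared bases or strand, so the Sav1 and Lats2 values are uncertain to that extent.

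**Figure D1:**
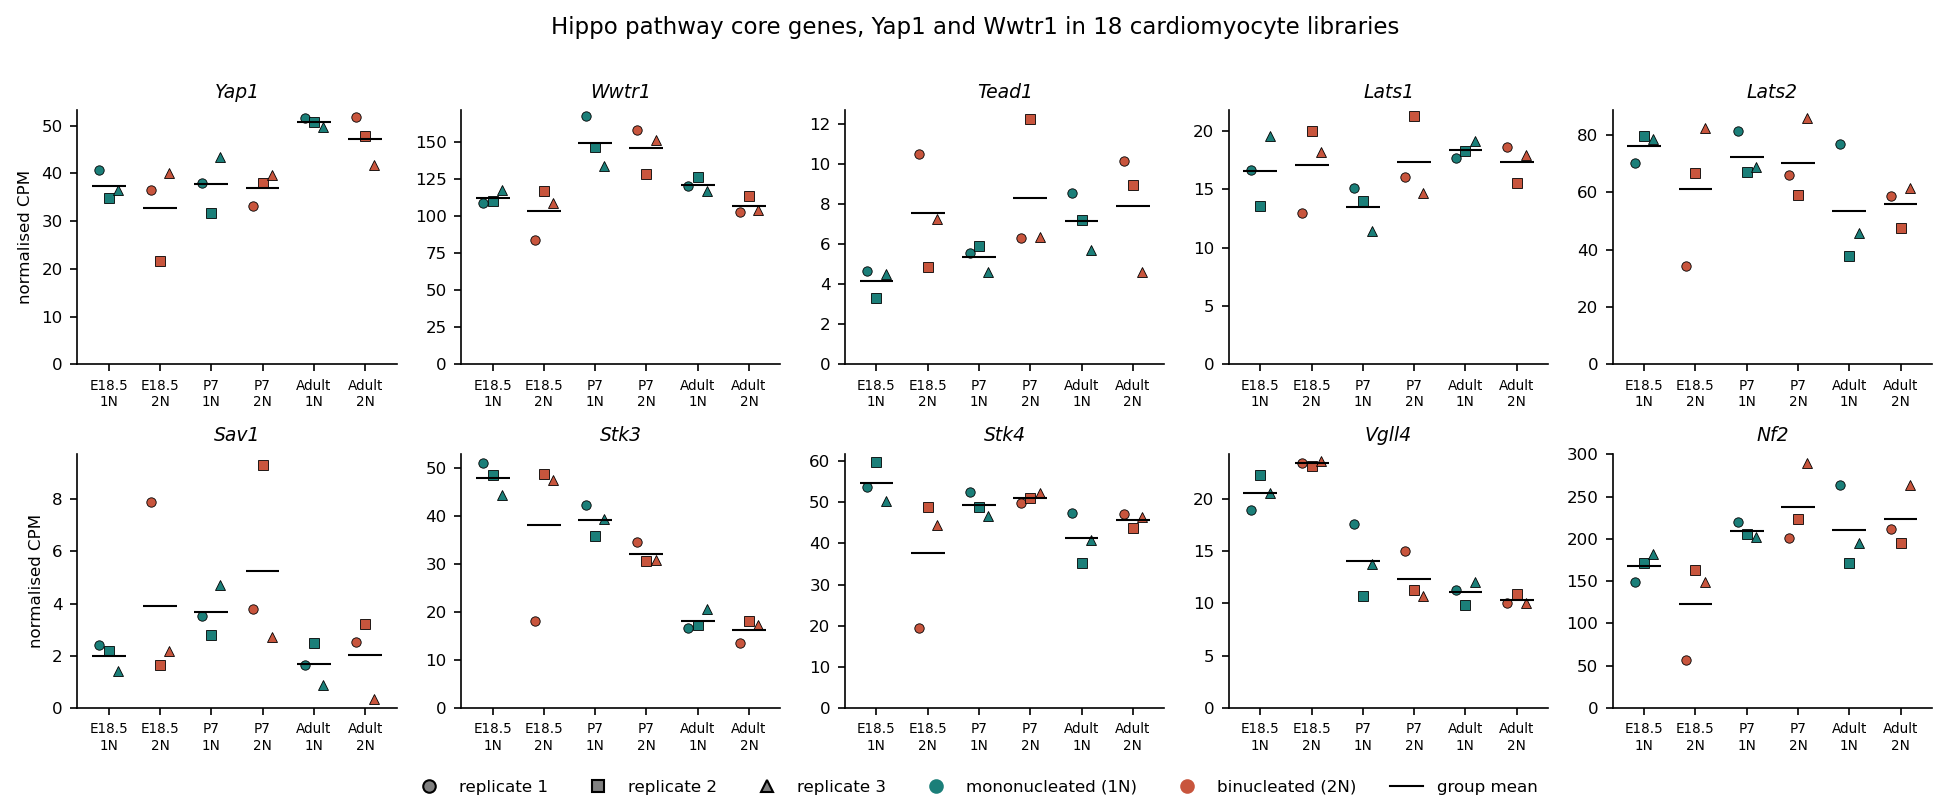
CPM (axis from 0) of the 10 members in each of the 18 libraries, by age and class, each point 1 library and each bar a group mean. Stk3 drops from 30.6 CPM or more at P7 to 20.6 CPM or less in the adult, Vgll4 is above 18 CPM only at E18.5, and E18.5 binucleated replicate 1 lies below its replicates for Stk3, Stk4, Lats2 and Nf2.

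Promoter sequence was examined for the core of the Tead binding motif, GGAATG, or its reverse complement CATTCC, on both strands, in the 250 bases before each gene's start in RefSeq (build GRCm38.p6; 8 of 10 members have an entry, Tead1 and Stk3 have none). The motif was present in 4 of the 8 members (50%), in 7 of 19 Yap and Tead target genes with an entry (36.8%) and in 12.6% of all 27025 genes in the promoter table. A match describes the letters and is no evidence of binding. The sequences below are those of both effectors, of their competitor Vgll4, and of Ccn1, a standard target gene whose RNA moved with age, each read 5′ to 3′ toward the gene's start, with the motif in capitals.
Yap1: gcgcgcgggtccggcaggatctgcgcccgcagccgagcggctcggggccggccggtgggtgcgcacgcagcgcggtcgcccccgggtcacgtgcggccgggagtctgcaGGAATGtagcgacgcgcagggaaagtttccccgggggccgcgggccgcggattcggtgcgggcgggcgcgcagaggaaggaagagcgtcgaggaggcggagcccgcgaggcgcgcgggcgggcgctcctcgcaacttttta
Wwtr1: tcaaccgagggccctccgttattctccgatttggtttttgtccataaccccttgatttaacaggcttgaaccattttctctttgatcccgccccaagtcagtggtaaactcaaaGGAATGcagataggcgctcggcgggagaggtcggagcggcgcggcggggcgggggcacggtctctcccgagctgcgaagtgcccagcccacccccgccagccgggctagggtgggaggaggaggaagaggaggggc
Vgll4: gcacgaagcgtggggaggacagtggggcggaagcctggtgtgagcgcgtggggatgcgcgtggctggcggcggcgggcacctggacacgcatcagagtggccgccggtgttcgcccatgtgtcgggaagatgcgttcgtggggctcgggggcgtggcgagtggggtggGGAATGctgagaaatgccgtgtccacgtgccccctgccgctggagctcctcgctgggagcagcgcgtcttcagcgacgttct
Ccn1: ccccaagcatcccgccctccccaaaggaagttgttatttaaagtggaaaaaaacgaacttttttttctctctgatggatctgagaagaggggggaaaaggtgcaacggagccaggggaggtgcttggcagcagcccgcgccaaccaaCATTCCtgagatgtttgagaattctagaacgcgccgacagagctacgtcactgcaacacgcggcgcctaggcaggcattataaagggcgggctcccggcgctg
These windows are chr9:8004597-8004846 for Yap1, chr3:57575911-57576160 for Wwtr1, chr6:114969204-114969453 for Vgll4 and chr3:145649986-145650235 for Ccn1, all on the minus strand. The first base of the motif lies 141 bases before the start for Yap1, 136 for Wwtr1, 82 for Vgll4 and 103 for Ccn1. Sav1 has CATTCC 106 bases before its start, and no match was found in this window for Lats1, Lats2, Stk4 or Nf2.

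The first comparison asked whether members differed between binucleated and mononucleated cells of the same age. At E18.5 0 of 10 members were called by limma at an adjusted p under 0.05, against 0.805% of all genes; 2 members had an unadjusted p under 0.05, and voom weighting called 0. At P7 the count was 0 of 10 against 2.12%, with 0 at the unadjusted level and 0 by voom, and in the adult 0 of 10 against 0.0913%, again with 0 and 0. The members' median binucleated minus mononucleated difference was -0.19, 0.01 and -0.09 (log2) at the 3 ages in order, beside -0.01, 0.02 and 0.00 for all genes. The E18.5 median was -0.01 without binucleated replicate 1, so its distance from the all-gene median rests on that library. CPM of both classes did not overlap for 3, 2 and 1 members at the 3 ages, against 13.9%, 24.5% and 6.24% of all genes.

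Yap1 itself had no call between classes. The binucleated minus mononucleated difference of Yap1 was -0.24 at E18.5 (95% interval -0.64 to 0.17), -0.02 at P7 (-0.43 to 0.39) and -0.11 in the adult (-0.52 to 0.30) on the log2 scale. For Wwtr1 it was -0.14 (-0.41 to 0.14), -0.03 (-0.31 to 0.24) and -0.18 (-0.45 to 0.09). Without E18.5 binucleated replicate 1 the E18.5 difference was -0.34 for Yap1 and 0.01 for Wwtr1. The intervals leave room for differences of about the size of the age changes described below, so the missing calls do not make the classes alike. In the adult the 3 Wwtr1 values of mononucleated cells, 120.3, 126.1 and 116.8 CPM, all lay above those of binucleated cells, 102.8, 113.6 and 104.1 CPM, and the difference did not pass (limma adjusted p = 1.0).

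Stk4 and Tead1 were the members with an unadjusted p under 0.05 at E18.5. Stk4 measured 53.7, 59.8 and 50.3 CPM in mononucleated and 19.5, 48.9 and 44.6 CPM in binucleated replicates 1 to 3. The groups did not overlap, with replicate 1 of the binucleated group far below the others. The log2 difference was -0.64 ± 0.24 (SE; limma adjusted p = 0.277), and -0.22 (adjusted p = 0.588) without that replicate. Tead1 measured 4.66, 3.29 and 4.51 CPM in mononucleated and 10.5, 4.83 and 7.25 CPM in binucleated cells, again without overlap. Its difference was 0.80 ± 0.35 (limma adjusted p = 0.342), and 0.53 (adjusted p = 0.71) without replicate 1. At P7 Tead1 again did not overlap, at 4.60 to 5.92 CPM in mononucleated and 6.31 to 12.2 CPM in binucleated cells, with a difference of 0.57 (limma adjusted p = 0.721).

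Replicate 1 of the E18.5 binucleated group also set the sign or size of other E18.5 differences. Relative to the mean of its replicates it held 0.365 times the Nf2, 0.375 times the Stk3, 0.417 times the Stk4, 0.461 times the Lats2, 0.68 times the Lats1 and 0.741 times the Wwtr1 CPM, but 1.74 times the Tead1 and 4.12 times the Sav1 CPM. Yap1 (1.19 times) and Vgll4 (1.0 times) lay between the values of the other replicates. Without it the E18.5 class difference moved from -0.58 to -0.10 for Nf2, from -0.47 to 0.01 for Stk3, from -0.41 to -0.04 for Lats2 and from 0.65 to -0.03 for Sav1, and 0 of 10 members were called by limma against 1.14% of all genes.

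**Figure D2:**
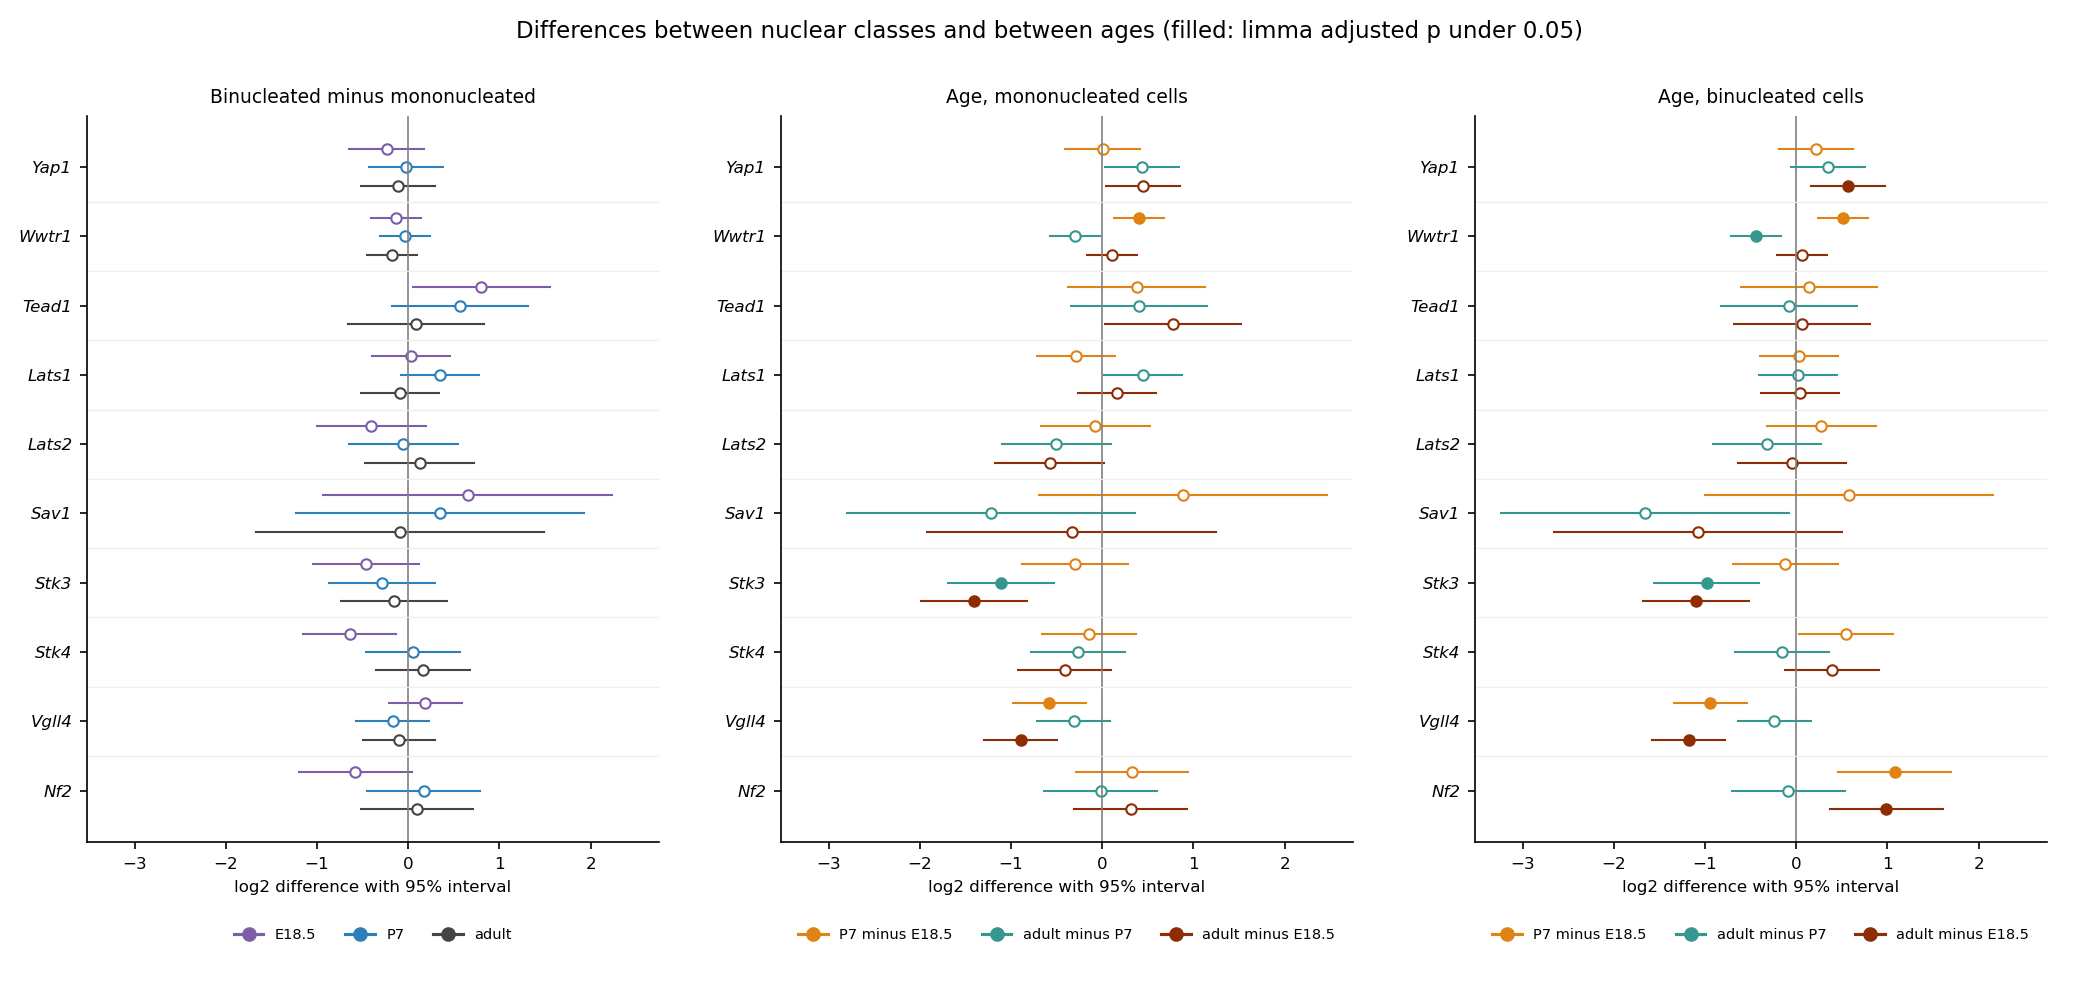
Log2 differences of the 10 members with 95% intervals from limma, for the class comparison at each age and for the age comparisons in each class; filled points passed an adjusted p under 0.05. All class differences are open points, and the called points are those of Stk3, Vgll4, Wwtr1, Nf2 and Yap1 between ages.

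Age comparisons were made within each class. The comparisons share groups (P7 enters 2 of them, E18.5 and the adult likewise), so their values are set side by side only. Between E18.5 and P7 limma called 2 of 10 members in mononucleated cells, 1 higher (10.7% of all genes) and 1 lower (7.84% of all genes), and 3 of 10 in binucleated cells (36% of all genes). Between P7 and the adult it called 1 of 10 (41.4%) in mononucleated and 2 of 10 (37%) in binucleated cells, and between E18.5 and the adult 2 of 10 (53.8%) and 4 of 10 (57.7%). The members' share was thus near the genome-wide share from E18.5 to P7 and below it in the comparisons with the adult, with only 10 genes to count. With E18.5 binucleated replicate 1 left out, the counts in the same order were 2, 4, 5, 2, 6 and 4, beside 32.4%, 41.8%, 53.8%, 50.3%, 64.8% and 63% of all genes. The lower share in the mononucleated comparisons with the adult thus depends on that library. The members' median log2 change was -0.04 and 0.25 from E18.5 to P7, -0.28 and -0.20 from P7 to the adult, and -0.11 and 0.05 from E18.5 to the adult in mononucleated and binucleated cells, with all-gene medians between -0.03 and 0.03. The binucleated median from E18.5 to the adult turned to -0.11 without E18.5 binucleated replicate 1. In that order of comparisons, CPM of both ages did not overlap for 5, 4, 5, 4, 5 and 4 of 10 members, against 47.2%, 42.4%, 59.3%, 61.2%, 67.7% and 58.6% of all genes.

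At the head of the kinase chain, the Mst kinase gene Stk3 fell after P7. Stk3 measured 51.1, 48.5 and 44.3 CPM in E18.5 mononucleated and 18.01, 48.7 and 47.4 CPM in E18.5 binucleated cells. At P7 it measured 42.2, 35.7 and 39.3 CPM in mononucleated and 34.5, 30.6 and 30.9 CPM in binucleated cells. In the adult it was 16.5, 17.2 and 20.6 CPM in mononucleated and 13.6, 17.99 and 17.2 CPM in binucleated cells. Every adult library lay below every P7 library of its class, and only E18.5 binucleated replicate 1 reached the adult range among younger cells. From P7 to the adult Stk3 fell by 1.11 ± 0.27 on the log2 scale in mononucleated cells (2.16-fold lower, limma adjusted p = 0.00366) and by 0.98 ± 0.27 in binucleated cells (1.98-fold lower, limma adjusted p = 0.0094). From E18.5 to the adult it fell by 1.41 (2.65-fold, limma adjusted p = 0.00038) and by 1.10 (2.15-fold, limma adjusted p = 0.00253). Without E18.5 binucleated replicate 1 the binucleated change from E18.5 was -1.57 (limma adjusted p = 9.17e-08), and the change from E18.5 to P7 in binucleated cells moved from -0.12 (adjusted p = 0.765) to -0.59 (adjusted p = 0.00346). The binucleated change from E18.5 to the adult did not pass when only the libraries compared were fitted (limma adjusted p = 0.0644).

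Stk4, the paralogue of Stk3, had no call between ages with all libraries in the fit. Stk4 measured 46.7 to 52.5 CPM at P7 and 35.3 to 47.5 CPM in adult mononucleated cells, and 49.8 to 52.2 CPM and 43.9 to 47.1 CPM in binucleated cells. Adult values were lower without overlap in the binucleated class and overlapped in the mononucleated class. The adult minus P7 differences were -0.27 ± 0.24 (limma adjusted p = 0.41) and -0.16 ± 0.24 (limma adjusted p = 0.655). Without E18.5 binucleated replicate 1, which enters these tests through the shared spread, the mononucleated changes passed, at -0.27 from P7 (limma adjusted p = 0.0444) and -0.41 from E18.5 (limma adjusted p = 0.00302). In binucleated cells the P7 minus E18.5 difference of Stk4 was 0.55 (limma adjusted p = 0.0873), and 0.13 (limma adjusted p = 0.409) without that replicate. It was called without E18.5 binucleated replicate 2 (0.79, limma adjusted p = 0.0179) or replicate 3 (0.725, limma adjusted p = 0.0379).

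The balance of the Mst genes can be read per length within each library. Stk3 CPM per kilobase was 0.843 ± 0.067 (SD, n = 3) times that of Stk4 in E18.5 mononucleated and 0.953 ± 0.066 times in E18.5 binucleated cells. At P7 the ratio was 0.760 ± 0.054 and 0.601 ± 0.054, and in the adult 0.428 ± 0.082 and 0.342 ± 0.059. The lowest E18.5 library, at 0.777, was above the highest adult library, at 0.483, in either class. E18.5 binucleated replicate 1, low for both genes, had a ratio of 0.886, inside the range of its group.

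Sav1, the scaffold that holds Mst to Lats, had the widest range of group means of any member (1.66 on the log2 scale) and no called change with all libraries in the fit. Its highest libraries were P7 binucleated replicate 2 at 9.31 CPM and E18.5 binucleated replicate 1 at 7.89 CPM, and its lowest was adult binucleated replicate 3 at 0.345 CPM. The remaining 15 libraries lay between 0.857 and 4.71 CPM. The P7 to adult difference was -1.66 ± 0.75 in binucleated cells (limma adjusted p = 0.0944), with overlapping groups, and -1.22 ± 0.75 in mononucleated cells (limma adjusted p = 0.211), without overlap. The binucleated difference was -0.67 (limma adjusted p = 0.475) without adult replicate 3 and was called, at -2.23 (limma adjusted p = 0.0439), without adult replicate 2. The mononucleated difference was called with array weights (limma adjusted p = 0.0461) and with only the libraries compared (limma adjusted p = 0.0427). The same 2 libraries that were highest for Sav1 were also the highest of their groups for Tead1, at 12.2 and 10.5 CPM.

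Nf2, which recruits Lats to the membrane, measured 149.3, 171.1 and 181.5 CPM in E18.5 mononucleated and 56.9, 162.6 and 149.4 CPM in E18.5 binucleated cells. At P7 it measured 219.6, 205.8 and 202.4 CPM in mononucleated and 201.1, 223.8 and 289.2 CPM in binucleated cells. Adult values were 264.1, 171.8 and 195.2 CPM in mononucleated and 211.2, 194.5 and 263.6 CPM in binucleated cells. Every P7 and adult binucleated library lay above every E18.5 binucleated library, whereas adult and E18.5 mononucleated libraries overlapped. In binucleated cells Nf2 rose by 1.08 ± 0.29 on the log2 scale from E18.5 to P7 (2.11-fold, limma adjusted p = 0.00908) and by 0.99 ± 0.29 from E18.5 to the adult (1.99-fold, limma adjusted p = 0.00826). Without E18.5 binucleated replicate 1 these were 0.59 (limma adjusted p = 0.0126) and 0.51 (limma adjusted p = 0.0195), still called and smaller. They were not called when only the libraries compared were fitted (limma adjusted p = 0.112 and 0.0859), and the second not under quantile normalization (0.65, limma adjusted p = 0.0683). In mononucleated cells the differences were 0.33 (limma adjusted p = 0.495) and 0.31 (limma adjusted p = 0.387).

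The Lats kinases, which phosphorylate Yap and Taz, gave no call. Lats1 lay between 11.4 and 21.3 CPM in all 18 libraries, with group means from 13.5 to 18.4 CPM. Its adult minus P7 difference in mononucleated cells was 0.45 ± 0.20 (limma adjusted p = 0.0858), with every adult library above every P7 library, and it passed without E18.5 binucleated replicate 1 (adjusted p = 0.035). Lats2 ranged from 34.3 to 85.9 CPM, and its group means from 53.3 CPM in adult mononucleated to 76.0 CPM in E18.5 mononucleated cells. Its adult minus E18.5 difference in mononucleated cells was -0.58 ± 0.28 (limma adjusted p = 0.0952), and 0.0231 was the adjusted p without E18.5 binucleated replicate 1. Adult mononucleated replicate 1, at 76.8 CPM, lay inside the E18.5 range, and replicates 2 and 3, at 37.6 and 45.6 CPM, below it; without replicate 1 the difference was -0.87 (limma adjusted p = 0.0164). Per kilobase, Lats1 was 0.179 to 0.362 times Lats2 over the 6 group means.

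Yap1 was highest in the adult. In E18.5 cells Yap1 measured 40.7, 34.8 and 36.6 CPM (mononucleated) and 36.5, 21.6 and 40.0 CPM (binucleated). At P7 it measured 37.99, 31.7 and 43.4 CPM in mononucleated and 33.2, 37.96 and 39.7 CPM in binucleated cells. Adult cells had 51.7, 50.8 and 49.7 CPM in mononucleated and 51.7, 47.8 and 41.8 CPM in binucleated libraries. Adult libraries exceeded every younger library of their own class, while in the order of group means the ranges of all neighbouring groups overlapped. In binucleated cells Yap1 rose by 0.57 ± 0.19 on the log2 scale from E18.5 to the adult (1.48-fold, limma adjusted p = 0.018). The call was lost without E18.5 binucleated replicate 2, the lowest library (0.30, limma adjusted p = 0.108), without adult binucleated replicate 1 (0.50, adjusted p = 0.0684), and with only the libraries compared in the fit (adjusted p = 0.133). It held without E18.5 binucleated replicate 1 (0.67, limma adjusted p = 0.00769). In mononucleated cells the same comparison gave 0.44 ± 0.19 (1.36-fold, limma adjusted p = 0.0621), and adjusted p-values of 0.0387, 0.0119 and 0.0441 without E18.5 binucleated replicates 1, 2 and 3. The adult minus P7 differences of Yap1 were 0.44 (limma adjusted p = 0.0788) and 0.35 (limma adjusted p = 0.171) in mononucleated and binucleated cells, the first with an adjusted p of 0.0476 without E18.5 binucleated replicate 1.

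Wwtr1 had a different course and was highest at P7. It measured 108.8, 110.2 and 117.5 CPM in E18.5 mononucleated and 83.6, 117.0 and 108.6 CPM in E18.5 binucleated cells. At P7 the values were 167.0, 146.4 and 133.6 CPM in mononucleated and 157.8, 128.3 and 151.0 CPM in binucleated cells. In the adult they were 120.3, 126.1 and 116.8 CPM and 102.8, 113.6 and 104.1 CPM. All P7 libraries lay above all E18.5 and all adult libraries of either class. Wwtr1 rose from E18.5 to P7 by 0.41 ± 0.13 on the log2 scale in mononucleated cells (1.32-fold, limma adjusted p = 0.0377) and by 0.51 ± 0.13 in binucleated cells (1.42-fold, limma adjusted p = 0.00607). From P7 to the adult it fell by 0.44 ± 0.13 in binucleated cells (1.36-fold, limma adjusted p = 0.0124), and the mononucleated difference was -0.29 ± 0.13 (limma adjusted p = 0.0801; 0.0141 without E18.5 binucleated replicate 1).

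The 3 Wwtr1 calls differed in how far they depended on single libraries and settings. The mononucleated rise did not pass under quantile normalization (0.37, limma adjusted p = 0.0712), without the intensity trend (adjusted p = 0.0547), with a replicate block across ages (adjusted p = 0.0569), or without any 1 of 5 libraries: E18.5 mononucleated replicates 1, 2 and 3 and P7 mononucleated replicates 1 and 2 (adjusted p from 0.0635 to 0.155). The binucleated rise was 0.37 (limma adjusted p = 0.0105) without E18.5 binucleated replicate 1 and did not pass with only the libraries compared (adjusted p = 0.116). The binucleated fall did not pass without P7 binucleated replicate 1 (-0.38, limma adjusted p = 0.0593). Per kilobase, Yap1 was 0.172 and 0.170 times Wwtr1 at E18.5 in mononucleated and binucleated cells, 0.132 in both classes at P7, and 0.216 and 0.228 times in the adult.

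**Figure D3:**
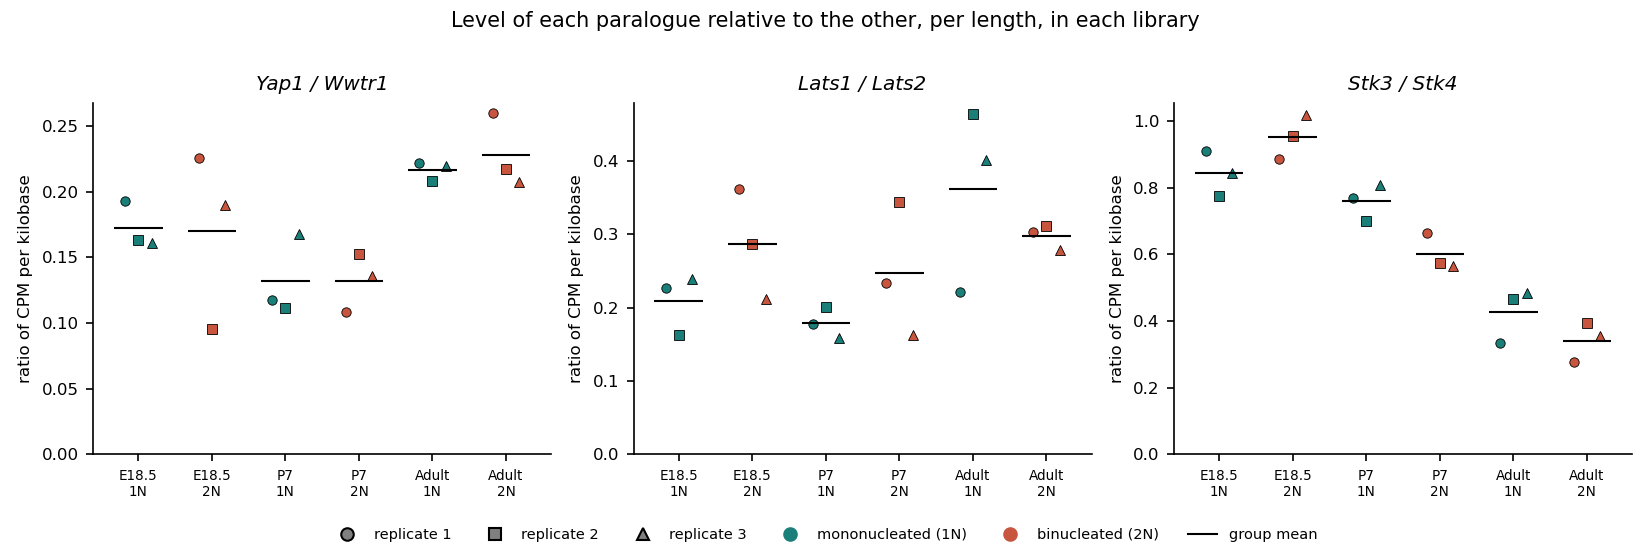
Ratios of CPM per kilobase of exon within each library for Stk3 to Stk4, Lats1 to Lats2 and Yap1 to Wwtr1, by age and class, each point 1 library and bars the group mean. The Stk3 to Stk4 ratio runs from 0.777 to 1.02 at E18.5 and from 0.277 to 0.483 in the adult, and the group means of the Yap1 to Wwtr1 ratio are lowest at P7.

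Vgll4, which competes with Yap and Taz for Tead factors, fell with age in both classes. Vgll4 measured 18.9, 22.3 and 20.5 CPM in E18.5 mononucleated and 23.4, 23.2 and 23.6 CPM in E18.5 binucleated cells. At P7 it measured 17.6, 10.7 and 13.8 CPM in mononucleated and 15.0, 11.2 and 10.7 CPM in binucleated cells. The adult libraries had 11.3, 9.89 and 12.1 CPM in mononucleated and 10.04, 10.9 and 9.99 CPM in binucleated cells. All E18.5 libraries exceeded all P7 and adult libraries, and P7 and adult ranges overlapped. From E18.5 to the adult Vgll4 fell by 0.89 ± 0.19 on the log2 scale in mononucleated cells (1.86-fold, limma adjusted p = 0.000758) and by 1.18 ± 0.19 in binucleated cells (2.26-fold, limma adjusted p = 4.99e-05). From E18.5 to P7 it fell by 0.58 ± 0.19 in mononucleated cells (1.5-fold, limma adjusted p = 0.0401) and by 0.94 ± 0.19 in binucleated cells (1.92-fold, limma adjusted p = 0.00107). The mononucleated fall to P7 was lost without any 1 of 8 libraries (limma adjusted p up to 0.201): each E18.5 mononucleated replicate, P7 mononucleated replicates 2 and 3, and each adult binucleated replicate. It was also lost with only the libraries compared (adjusted p = 0.0509). The other 3 Vgll4 calls held without each of the 18 libraries and under each of the 7 other settings tried.

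Tead1, a DNA-binding partner of Yap and Taz, had no call between ages. Its lowest group mean was 4.15 CPM in E18.5 mononucleated cells and the other 5 lay between 5.36 and 8.30 CPM. The adult minus E18.5 difference in mononucleated cells, 5.69 to 8.56 against 3.29 to 4.66 CPM, was 0.78 ± 0.35 (limma adjusted p = 0.0733). It passed without E18.5 binucleated replicate 1 (adjusted p = 0.0455), without adult binucleated replicate 3 (0.0496) and under quantile normalization (1.16, limma adjusted p = 0.0132). In binucleated cells it was 0.06 (limma adjusted p = 0.895), and 0.34 (limma adjusted p = 0.435) without E18.5 binucleated replicate 1.

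Whether the classes changed differently with age was tested by the change of the class difference. Limma called 0 of 10 members from E18.5 to P7 (2.33% of all genes), 0 from P7 to the adult (0.208%) and 0 from E18.5 to the adult (0.158%). Unadjusted p-values under 0.05 numbered 0, 0 and 1, and voom called 0 in each. The 1 was Stk4 from E18.5 to the adult, 0.80 ± 0.34 (limma adjusted p = 0.701), and 0.38 (limma adjusted p = 0.585) without E18.5 binucleated replicate 1. For Nf2, called with age in binucleated cells only, the change of the class difference was 0.75 ± 0.41 to P7 (limma adjusted p = 0.427) and 0.68 ± 0.41 to the adult (limma adjusted p = 0.725). Leaving out E18.5 binucleated replicate 1 reduced these to 0.27 (limma adjusted p = 0.612) and 0.19 (limma adjusted p = 0.953). For Yap1 it was 0.13 ± 0.27 to the adult (limma adjusted p = 0.881), and 0.23 (limma adjusted p = 0.948) without that library.

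The members' courses over the 6 groups were compared by the root mean square difference of their log2 group means, each centred on its own mean. The closest pair was Lats2 and Stk4 (0.15), followed by Wwtr1 and Stk4 (0.21) and Yap1 and Lats1 (0.21), and the nearest member to Stk3 was Vgll4 (0.38). These are distances over 6 points that share libraries; 262 genes lay nearer to Stk4 than Lats2 did, and 1878 nearer to Yap1 than Lats1 did. Of all genes, those nearest to Yap1 were Rnf187 (0.026), Lman2l (0.040) and Ciapin1 (0.042). For Sav1 they were ENSMUSG00000030771 (0.138), Fam117a (0.139) and Bri3 (0.168).

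The rest of the pathway was followed through 6 lists with 108 genes measured, of which Ajuba, Amotl2 and Ptpn14 stand in 2 lists. Between classes limma called 0 of these genes at each age, beside 0.805%, 2.12% and 0.0913% of all genes. At the 3 ages in order 22, 10 and 3 of the 108 had an unadjusted p under 0.05, beside 1679, 1210 and 301 of all 12048 genes. Voom called 1, 1 and 0 of the 108. The alternative settings that kept all libraries or only those compared, voom among them, called 0 to 338, 217 to 1401 and 0 to 52 of all genes. Limma's calls became 1, 2 and 0 without E18.5 binucleated replicate 1, beside 1.14% of all genes at E18.5. Over all single-library removals, 129 to 574 of all genes were called at P7 and 2 to 23 in the adult. Between E18.5 and the adult 61 of 108 were called in mononucleated and 63 in binucleated cells, beside 53.8% and 57.7% of all genes. Without that library the counts were 74 and 66, beside 64.8% and 63% of all genes.

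Regulators of the kinases (24 measured; Wwc1 was not) were mixed. From E18.5 to the adult 3 rose and 5 fell in mononucleated cells, 5 rose and 6 fell in binucleated cells, and the list medians were -0.09 and -0.11 beside -0.01 and -0.02 for all genes. The share of the list called, 33.3% and 45.8%, lay below the 53.8% and 57.7% of all genes. Mob1b, a coactivator of Lats, measured 77.8 to 87.3 CPM at P7 and 35.2 to 45.8 CPM in the adult in mononucleated cells, and 97.8 to 104.0 and 37.6 to 45.4 CPM in binucleated cells. It fell by 0.98 (limma adjusted p = 0.000827) and by 1.30 (limma adjusted p = 6.97e-05), at the same step as Stk3. Its paralogue Mob1a and the kinase Taok1 had no call in any comparison. Among the Rassf genes, whose proteins bind the Mst kinases, Rassf3 rose from E18.5 to the adult by 1.64 and 1.83 (limma adjusted p = 4.78e-06 and 1.24e-06), while Rassf1 fell by 1.43 and 1.26 (6.16e-05 and 0.000183) and Rassf5 fell by 2.67 and 3.32 (0.000958 and 0.00012). The list had, without E18.5 binucleated replicate 1, 4 up and 7 down in mononucleated and 2 up and 8 down in binucleated cells. In that fit 64.8% and 63% of all genes were called.

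In the STRIPAK phosphatase complex, which opposes the Mst kinases, 2 of 19 genes rose and 7 fell in each class from E18.5 to the adult, with medians of -0.22 and -0.36. That is 47.4% of the list in each class, below the 53.8% and 57.7% of all genes, and the binucleated median was -0.16 without E18.5 binucleated replicate 1. Its scaffold gene Strn3 rose by 0.92 and 1.17 (limma adjusted p = 1.21e-05 and 7.22e-07), and Ppp2r1b, a phosphatase scaffold, fell by 2.16 and 1.96 (limma adjusted p = 1.45e-05 and 3.34e-05). The complex counted, without E18.5 binucleated replicate 1, 2 up and 10 down in mononucleated and 2 up and 8 down in binucleated cells. In that fit 64.8% and 63% of all genes were called. The lower share of the complex in mononucleated cells thus depends on that library.

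Junction and polarity partners (23 measured) had 2 up and 11 down in mononucleated and 7 up and 6 down in binucleated cells from E18.5 to the adult. That is 56.5% called in each class, near the 53.8% and 57.7% of all genes, with medians of -0.31 and -0.30. Without E18.5 binucleated replicate 1 the counts were 6 up and 11 down and 7 up and 10 down, beside 64.8% and 63% of all genes called. The nearness to all genes thus depends on that library. Ajuba, which inhibits Lats, fell by 2.08 and 2.52 (limma adjusted p = 1.79e-06 and 1.64e-07) and the atypical cadherin Fat1 by 1.67 and 2.22 (9.03e-05 and 3.87e-06). Of the angiomotins, which hold Yap at junctions, Amotl1 fell from E18.5 to P7 by 1.17 and 1.76 (limma adjusted p = 0.000785 and 9.18e-06) and rose again to the adult by 0.55 and 1.00 (0.0421 and 0.00113). The mononucleated rise of Amotl1 did not pass without any 1 of 7 libraries (limma adjusted p up to 0.141): each P7 mononucleated replicate, adult mononucleated replicates 1 and 3, E18.5 mononucleated replicate 2 and adult binucleated replicate 3. Amotl2 had no call, and Amot rose from E18.5 to the adult by 4.03 and 3.33 (limma adjusted p = 0.00771 and 0.0217) from few reads. E18.5 mononucleated cells had 0, 50 and 42 Amot reads, and without the library at 0 the Amot change was 1.87; the binucleated call was lost without adult binucleated replicate 1 (3.09, limma adjusted p = 0.0653).

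In the nuclear part Tead2 had the largest change. Tead2 measured 22.7 to 35.7 CPM at E18.5, 19.1 to 20.5 CPM in P7 mononucleated, 6.87 to 11.5 CPM in P7 binucleated and 0 to 0.345 CPM in adult cells. Its recovered reads over the 3 libraries of a group numbered 2137 and 1853 at E18.5, 1222 and 518 at P7, and 5 and 7 in the adult, so the adult level is close to no reads. From E18.5 to the adult the fitted Tead2 change was -7.92 and -8.10 (limma adjusted p = 1.1e-08 and 6.51e-09), a size that depends on the offset of 0.5 added to each count. Tead3 fell from E18.5 to the adult in binucleated cells by 0.98 (limma adjusted p = 0.00358; -0.30 and 0.305 under quantile normalization), and the mononucleated difference was -0.34 (limma adjusted p = 0.272). Per kilobase, mean Tead2 was 6.19 and mean Tead1 0.306 CPM in E18.5 mononucleated cells, and 0.021 and 0.527 CPM in adult mononucleated cells, so their order reversed. Tead4 was not measured. Of the 8 genes in this list 1 rose and 3 fell in mononucleated cells, and 1 rose and 4 fell in binucleated cells, from E18.5 to the adult. The share called, 50% and 62.5%, was near the 53.8% and 57.7% of all genes. Arid1a, a chromatin remodelling subunit gene, fell by 1.03 and 1.22 (limma adjusted p = 0.00834 and 0.00224). Tbx5, a cardiac factor that works with Yap, was the one that rose (0.83 and 0.67, limma adjusted p = 0.00516 and 0.0187). Leaving out E18.5 binucleated replicate 1 gave 2 up and 3 down in mononucleated and 1 up and 4 down in binucleated cells. In that fit 64.8% and 63% of all genes were called.

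Genes of cytoplasmic retention and breakdown (12 measured) had 2 up and 7 down in each class from E18.5 to the adult (75% called, beside 53.8% and 57.7% of all genes), with medians of -0.61 and -0.72. The Ywha adaptor genes, whose proteins hold phosphorylated Yap in the cytoplasm, accounted for the largest of these. Ywhaq measured 146.8 to 171.0 CPM at E18.5, 79.5 to 118.9 CPM at P7 and 34.5 to 39.9 CPM in the adult, and the 3 ages did not overlap. It fell by 2.06 and 2.11 from E18.5 to the adult (limma adjusted p = 3.95e-10 and 2.13e-10). Ywhah fell by 1.23 and 1.53 and Ywhaz by 1.08 and 1.05, while Ywhag rose by 0.41 and 0.83 (limma adjusted p = 0.0306 and 0.000186). Without E18.5 binucleated replicate 1 the list had 2 up and 9 down in mononucleated and 2 up and 7 down in binucleated cells. In that fit 64.8% and 63% of all genes were called.

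**Figure D4:**
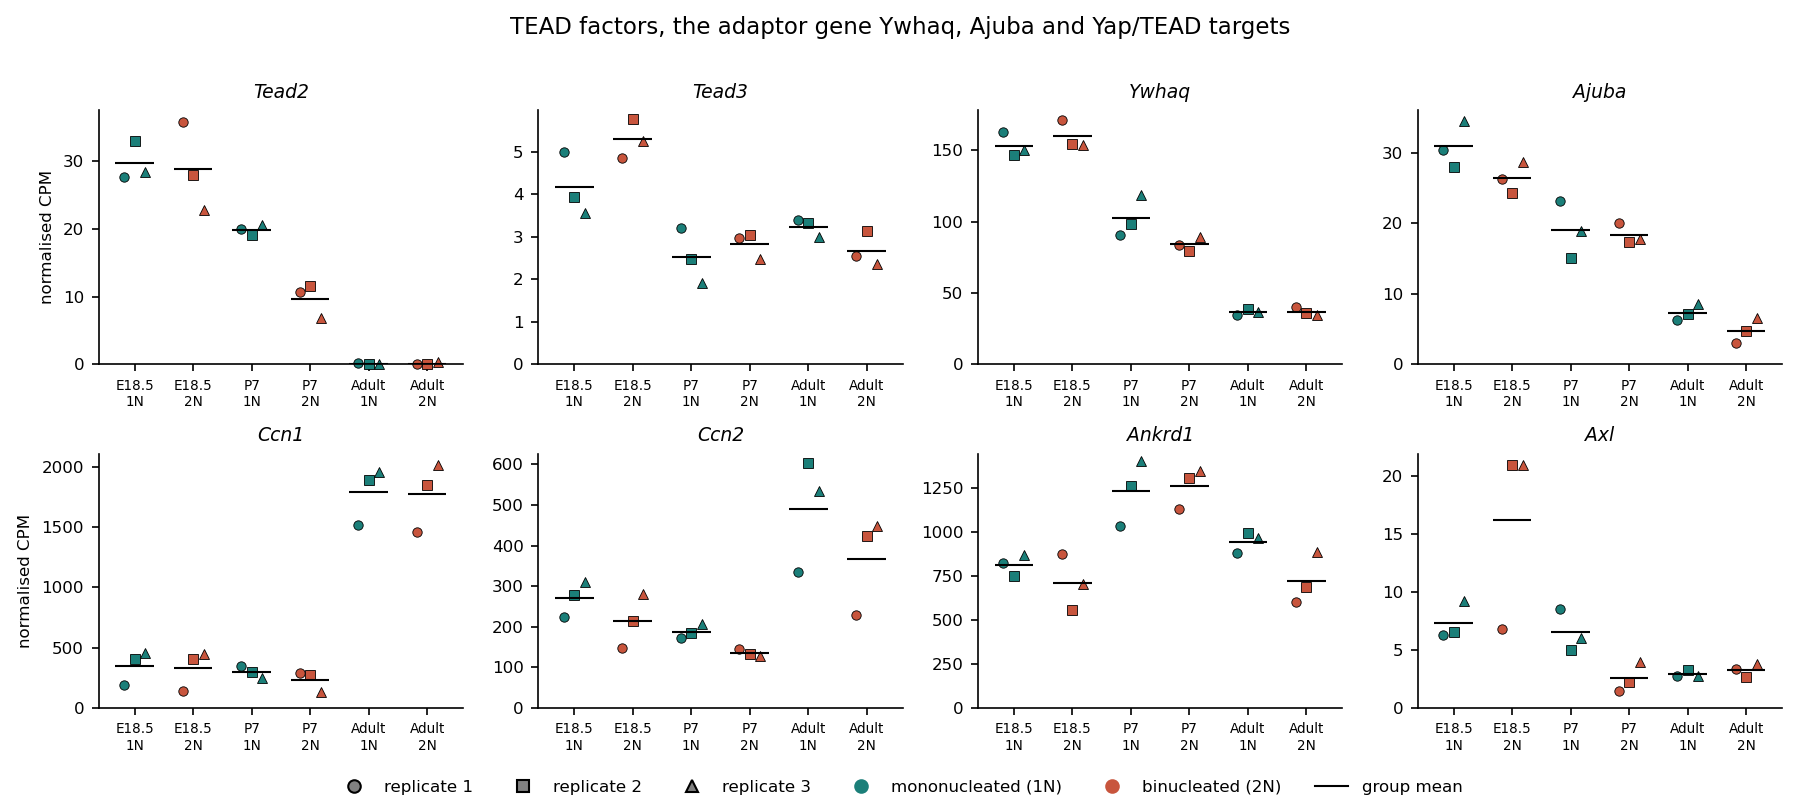
CPM (axis from 0) of other pathway genes in each of the 18 libraries, by age and class, each point 1 library and each bar a group mean. Tead2 goes from 22.7 CPM or more at E18.5 to 0.345 CPM or less in the adult, Ywhaq steps down at each age, and Ccn1 is at 1460 CPM or more in every adult library.

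Reported target genes of Yap and Tead (25 measured) rose more often than they fell toward the adult. From P7 to the adult 11 rose and 6 fell in mononucleated cells and 12 rose and 6 fell in binucleated cells, with medians of 0.78 and 0.86 beside -0.01 and -0.03 for all genes; over all genes 19.1% and 17.3% rose and 22.3% and 19.7% fell. From E18.5 to the adult 14 rose and 6 fell, and 12 rose and 6 fell, with medians of 1.02 and 0.77. Over all genes 26.2% and 28.3% rose and 27.7% and 29.4% fell in that comparison. Without E18.5 binucleated replicate 1 the target counts in the same order were 14 up and 7 down, 14 up and 6 down, 14 up and 6 down, and 11 up and 6 down. Over all genes 53.8%, 50.3%, 64.8% and 63% were then called in either direction. Ccn1, a secreted matrix protein gene, measured 127.0 to 343.9 CPM at P7 and 1460 to 2013 CPM in the adult, without overlap. It rose by 2.60 ± 0.41 in mononucleated cells (6.08-fold, limma adjusted p = 8.12e-05) and by 3.03 ± 0.41 in binucleated cells (8.18-fold, limma adjusted p = 2.18e-05). Ccn2, its relative, rose by 1.35 and 1.37 (limma adjusted p = 0.000653 and 0.000652).

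Other targets went other ways. Axl was lower at P7 than at E18.5 in binucleated cells (-2.60, limma adjusted p = 0.000174). Its reads per group in mononucleated and binucleated cells numbered 521 and 1175 at E18.5, 407 and 135 at P7, and 142 and 162 in the adult. Ankrd1, a cardiac ankyrin gene, rose from E18.5 to P7 by 0.59 and 0.85 (limma adjusted p = 0.0215 and 0.00105, the first up to 0.103 without E18.5 mononucleated replicate 1 or 2 or P7 mononucleated replicate 2 or 3) and fell to the adult in binucleated cells by 0.82 (limma adjusted p = 0.0011). Its adult minus E18.5 differences were 0.22 (limma adjusted p = 0.297) and 0.03 (0.895), and under quantile normalization they were called in the opposite direction, at -0.55 and -0.62 (0.00239 and 0.000761). Gadd45a, a growth arrest gene, rose by 3.56 and 3.29 from E18.5 to the adult (limma adjusted p = 8.85e-07 and 1.76e-06). Rbms3, an RNA-binding protein gene, fell by 3.60 and 3.81 (limma adjusted p = 1.28e-10 and 4.98e-11). Birc5, which works in cell division, had 4779 and 10697 reads over the E18.5 groups and 16 and 12 over the adult groups.

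Beside these target changes, 10 immediate early genes (Fos, Fosb, Jun, Junb, Egr1, Atf3, Ier2, Ier3, Dusp1 and Zfp36), a list chosen after Ccn1 was seen and sharing no gene with the targets, summed to 1021 to 2984 CPM in the E18.5 and P7 libraries and 4868 to 7942 CPM in the adult ones. Endothelial markers summed to 9.69 to 22.2 CPM at P7 and 75.6 to 104.4 CPM in the adult, and leukocyte markers to 0.175 to 1.11 and 4.42 to 7.22 CPM. Their part in the target changes was not tested.

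**Figure D5:**
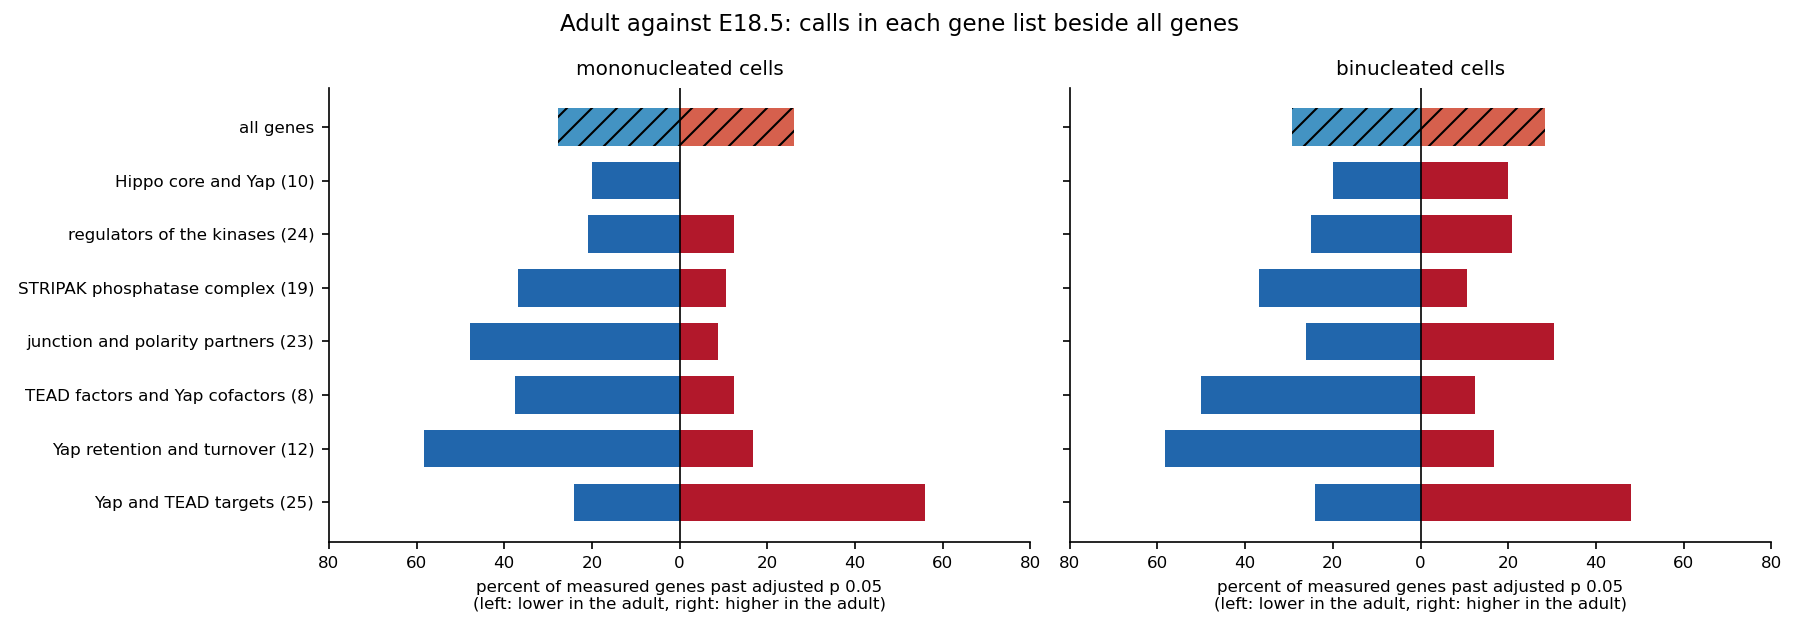
For each list of pathway genes, the share of measured genes called higher or lower from E18.5 to the adult in each class, beside the share of all genes. Targets have 14 of 25 and 12 of 25 genes called higher, against 26.2% and 28.3% of all genes, and retention genes have 7 of 12 called lower in each class, against 27.7% and 29.4%.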

How the data were processed

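RNA of 18 libraries of sorted cardiomyocytes was sequenced, 3 in each of 6 groups of age and nuclear class. Per the labels' protocols, RNA was purified by phenol-chloroform and RNeasy micro columns and went into TruSeq stranded mRNA and Clontech SMARTer kits. These kits amplify and carry no molecular identifiers, so counting error is only a lower bound on the error of the read counts. STAR, limma and build mm9 are named, per the submitters' processing notes, without versions, with counter and annotation not given in the sources used here.

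Each library has 1 table of log2 values deposited by the authors, and each lists the same 12048 Ensembl identifiers. Each value equals log2 of a whole count plus 0.5, times a factor of that library: 100% of values gave whole counts within 0.001. CPM is the recovered count scaled to 1000000 of the effective library size so defined, and CPM per kilobase divides by the union of exons in GENCODE M21 (11927 identifiers matched a symbol, 121 did not). Totals were 14833334 to 22690952. Replicate pairs differed by more than counting noise (chi-square per degree of freedom 13.5 or more), so each library was counted once.

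Limma 3.58.1 (R 4.3.3) was fitted to the deposited log2 values with 6 group means over all 18 libraries (12 residual degrees of freedom), empirical Bayes moderation and an intensity trend. There were 12 contrasts: class within age, age within class, and change of the class difference. P-values are two-sided and adjusted by Benjamini-Hochberg over all 12048 genes, with a threshold of 0.05. A fold is 2 to the difference on this scale. For genes with few reads its size depends on the offset added to each count. It can be too small, or too large where a library has no reads, as for Amot in E18.5 mononucleated cells. The procedure was tested on simulated data. Alternatives were quantile normalization, a filter of 100 counts in 3 libraries, voom weights, array weights, no trend, only the libraries compared, replicate blocks, and each library left out.

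Members and lists were chosen with earlier results of these data known. All members are named; other genes of a list are named from up to 4 per list and contrast with the smallest adjusted p, plus Ccn1, Ccn2, Ankrd1, Axl, Tead2, Tead3, Tead4, Mob1a, Mob1b, Taok1, Wwc1, Amot, Amotl1 and Amotl2. Ywhag is named beyond this rule where its P7 call did not lead to it. Replicate numbers were checked for pairing. Same-numbered mononucleated and binucleated libraries deviated together at P7 (correlations 0.182, 0.191 and 0.236) and in the adult (0.261, 0.264 and 0.327). At E18.5 these correlations were weaker but also positive (0.088, 0.054 and 0.158). Differently numbered E18.5 libraries had correlations from -0.095 to 0.002. Promoters are RefSeq sequences of build GRCm38.p6; no coordinates of the mm9 files are used.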

Additional observations from a re-analysis of the deposited data

Results flagged for a closer look

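Ywhah, an adaptor gene of the retention list, and Axl, a receptor kinase gene of the target list, changed differently with age in the 2 classes by the test of that difference. Ywhah measured 324.6, 337.1 and 356.7 CPM in mononucleated and 425.6, 375.9 and 391.0 CPM in binucleated cells at E18.5, and 243.4, 273.0 and 290.3 against 208.8, 197.9 and 215.5 CPM at P7. Binucleated cells thus lay above mononucleated cells at E18.5 and below them at P7, without overlap at either age. The change of the class difference from E18.5 to P7 was -0.599 ± 0.142 on the log2 scale (limma adjusted p = 0.0346). It was called without 8 of 18 single libraries (adjusted p 0.0173 to 0.105) and under 4 of 9 other settings (0.000589 to 0.0956), and not with a replicate block within each age (0.0808).

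Axl measured 6.24, 6.54 and 9.21 CPM in mononucleated and 6.75, 20.9 and 20.9 CPM in binucleated cells at E18.5, and 8.51, 4.99 and 6.05 against 1.46, 2.23 and 3.94 CPM at P7. Its change of the class difference was -2.417 ± 0.588 (limma adjusted p = 0.0411), called without 2 of 18 single libraries (adjusted p 0.00245 to 0.111) and under 5 of 9 other settings (0.000425 to 0.107), and not with a replicate block within each age (0.0542). Fibroblast markers summed to 301.2, 838.8 and 869.4 CPM in the same E18.5 binucleated libraries, so replicate 1 was the lowest for both; their part in the Axl result was not tested.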

How the results depend on the processing

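The 120 differences of the 10 members, 14 of them called, were computed again, which gave 3108 alternative values. Of these, 3041 kept the call or stayed uncalled, 26 lost the call and 41 gained one. No call reversed, and 111 uncalled values changed sign. The 26 losses could come only from the 14 called differences, so the total says little about how firm those are. Leaving out a library outside the groups compared does not change a difference, only its p-value. Both Stk3 falls after P7, its mononucleated fall from E18.5 and 3 of 4 Vgll4 falls were called under every alternative. Replicate blocks changed no class call of a member and ended 1 age call, the mononucleated rise of Wwtr1 to P7 (0.41, limma adjusted p = 0.0569 with the block across ages). For Ankrd1 the adult minus E18.5 differences were -0.545 and -0.621 under quantile normalization.

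Counts over all genes moved more, and the causes were not tested. The E18.5 class count of 97 was 51 with the filter of 100 counts (10524 genes tested), 204 with voom, 338 with array weights, 0 with only the libraries compared and 79 to 282 without single libraries; 89 of the 97 were higher in binucleated cells (91.8%), against 74.3% under quantile normalization. At P7, 256 became 1401 with array weights, 608 with only the libraries compared and 129 to 574 without single libraries. In the adult, 11 became 5 by quantile normalization, 0 by voom, 52 with array weights, 0 with only the libraries compared, 25 with a replicate block within each age and 2 to 23 without single libraries; the share higher was 9.1%, and 20% by quantile normalization. From E18.5 to P7, 2231 in mononucleated cells became 5177 with array weights, 3875 with only the libraries compared and 1628 to 3901 without single libraries, and 4332 in binucleated cells became 2069 with only the libraries compared. For the change of the class difference from E18.5 to P7, 281 became 430 by voom, 1199 with array weights and 160 to 568 without single libraries. From P7 to the adult, 25 became 1 by voom, 233 with array weights, 15 with a replicate block across ages, 12 within each age, 8 within age at P7 and in the adult only, and 0 to 102 without single libraries. From E18.5 to the adult, 19 became 99 with array weights, 38 without the trend and 8 to 36 without single libraries; 0% of the 19 were higher, and 15.4% by quantile normalization. With 3 libraries per group, members with few reads (Sav1, Tead1) have intervals wide enough to hide differences of the size called in other members.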
